A study of Mus musculus with 6 samples.

Results

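Azurophil granules are the first storage granules that a neutrophil makes, at the promyelocyte stage, and they hold the serine proteases, myeloperoxidase and lysosomal enzymes with which the cell kills microbes. The proteases are synthesized as inactive precursors, are activated by cathepsin C, which removes an N-terminal dipeptide, and are stored bound to the proteoglycan serglycin until release. Transcription of these genes is known to be high in granulocyte-monocyte progenitors and promyelocytes and to fall as secondary granule genes come on, under factors of the C/EBP, PU.1, RUNX and MYB families.

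The 9 genes described here were Mpo, Elane, Prtn3, Ctsg, Ctsc, Cst7, Srgn, Serpinb1a and Ms4a3, out of 27179 rows of the deposited expression table, and all 9 passed the filter on low values that left 12037 genes for testing. They were chosen by name as early granule genes, with the difference between the libraries labelled Asic3-null and WT in these same samples already known. That difference is therefore given for them as a description, without p-values. Whether limma called one of them is stated only to be set beside the share of all genes called, and supports nothing.

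RNA-seq was performed on YFP+Mac-1+c-Kit+ leukemia-initiating cells (LICs) from bone marrow of C57BL/6 mice, given as 8 weeks old. The leukemia was the MLL-AF9 model of acute myeloid leukemia, in which lineage-negative fetal liver cells were transduced with a retrovirus carrying the MLL-AF9 fusion and YFP and were transplanted into lethally irradiated recipients. Of the 6 libraries, 3 were labelled Asic3-null, with the gene of the acid-sensing ion channel ASIC3 deleted in the germline of the donor cells, and 3 were labelled WT; both groups carried MLL-AF9. The former are called null-labelled below. The study's methods describe its experiments in general as biologically repeated, but for these libraries no source used here says whether each came from a separate mouse, so the spread between them may be technical in part.

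The values were RPKM, read counts divided by gene length and by library size. Library sizes inferred from the steps of these values were 1947168 to 2381861 reads, so that a single read stood for 0.42 to 0.514 RPKM in a gene 1 kb long. Asic3 itself ran against the labels, at 9.12, 4.11 and 6.58 RPKM in the null-labelled libraries and 1.22, 1.85 and 0.435 in WT (limma adjusted p = 0.026, and up to 0.1 without Asic3-null replicate 1 or 3 or WT replicate 1 or 3). The labels are followed below as given, and if the groups had been exchanged every direction stated here would turn. Xist was on in the first group (58.0 ± 12.9 RPKM, SD, n = 3) and the summed RPKM of 4 Y-linked genes was 0 there, against 81.4 to 118 in WT, so genotype label and sex of the cells cannot be told apart in any comparison below. Of the sort markers, Kit (CD117) was at 17.6 ± 3.0 and 11.1 ± 3.6 RPKM with overlapping groups, and Itgam (the Mac-1 alpha chain) was lower in the null-labelled libraries, at 14.0 ± 2.51 against 76.8 ± 18.8 RPKM (limma adjusted p = 0.00072). In bulk RNA, fewer cells of a type and less RNA per cell cannot be told apart.

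The promoters of 4 granule enzymes, Elane, Prtn3, Mpo and Ctsg, are shown because the factors named above are known to act on genes of this kind. Each is the stretch of 250 bases just before the RefSeq start (GRCm38.p6), 5′ to 3′ on the gene's strand. Capitals mark every match, on either strand, to GAGGAA (PU.1), TGNGGT (RUNX), TTNNGNAA (C/EBP) or AACNG (MYB).
Elane, chr10:79886062-79886311, plus strand: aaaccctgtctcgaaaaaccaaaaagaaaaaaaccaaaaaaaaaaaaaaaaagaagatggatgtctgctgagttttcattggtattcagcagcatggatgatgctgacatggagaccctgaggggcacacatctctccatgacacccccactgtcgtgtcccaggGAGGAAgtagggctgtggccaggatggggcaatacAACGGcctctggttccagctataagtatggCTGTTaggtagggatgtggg
Prtn3, chr10:79879417-79879666, plus strand: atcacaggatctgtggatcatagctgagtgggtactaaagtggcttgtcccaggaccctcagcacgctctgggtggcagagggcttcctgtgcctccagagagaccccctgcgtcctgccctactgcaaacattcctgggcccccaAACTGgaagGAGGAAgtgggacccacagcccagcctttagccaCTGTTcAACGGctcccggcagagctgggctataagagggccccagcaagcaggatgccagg
Mpo, chr11:87793534-87793783, plus strand: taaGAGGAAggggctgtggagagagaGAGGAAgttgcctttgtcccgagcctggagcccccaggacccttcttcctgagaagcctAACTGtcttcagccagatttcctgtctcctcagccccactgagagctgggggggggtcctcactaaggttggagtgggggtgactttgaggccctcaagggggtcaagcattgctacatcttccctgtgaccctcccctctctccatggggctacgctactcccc
Ctsg, chr14:56102575-56102824, minus strand: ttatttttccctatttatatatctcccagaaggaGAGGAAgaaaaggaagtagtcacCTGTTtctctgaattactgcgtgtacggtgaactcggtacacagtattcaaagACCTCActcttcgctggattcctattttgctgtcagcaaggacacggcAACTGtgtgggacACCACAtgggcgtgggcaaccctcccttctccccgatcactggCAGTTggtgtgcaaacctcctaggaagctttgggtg

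In these stretches the neighbours Elane and Prtn3 each held GAGGAA once, on the strand of the gene, with its first base 85 bases before the start in Elane and 95 before it in Prtn3. Mpo held it farther out, 247 and 224 bases before the start, and Ctsg 216 before it. Ctsg was the only one of these 4 with the RUNX letters, both times on the opposite strand, 140 and 79 bases before the start. Over the whole RefSeq window, from 250 bases before to 50 after the start, 8 of the 9 genes had an entry (Srgn with 2 starts). GAGGAA was found in 6 of these 8 genes, and in 28.3% of 32851 windows of all genes. The MYB letters were found in 7 of 8 (80.3% of all windows), the RUNX letters in 4 of 8 (45.8%) and the C/EBP letters in 3 of 8 (40.7%), and the letters of PU.1, C/EBP and RUNX together in 0 of 8 (5.41%). A match is a description of letters, and the MYB and C/EBP letters can overlap, as they do in Srgn.

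**Figure D1:**
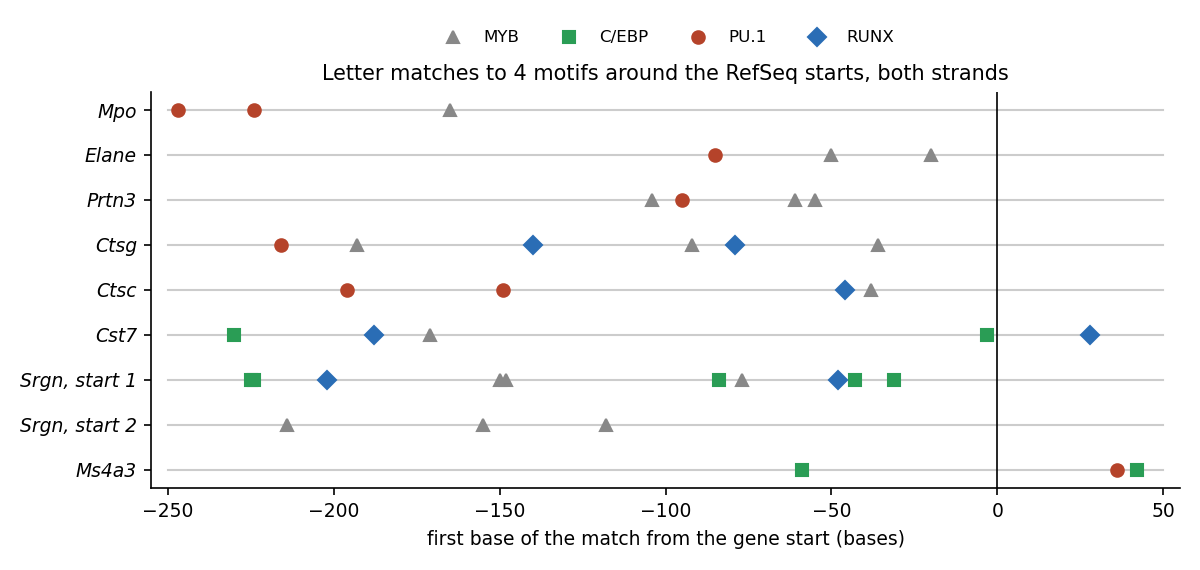
Position of each letter match to the MYB, C/EBP, PU.1 and RUNX motifs (symbols) from 250 bases before to 50 bases after the RefSeq start of 8 genes, with 1 line per start and the distance in bases on the x axis. GAGGAA (PU.1) lies 85 and 95 bases before the starts of Elane and Prtn3, and the 2 RUNX matches of Ctsg lie between 140 and 79 bases before its start.

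Between the groups, 7 of the 9 genes had a negative log2 difference (Asic3-null minus WT) and 2 a positive one, with a median of -0.38 against 0.03 over all tested genes. The groups did not overlap for 3 genes, Elane, Ctsc and Ms4a3, all lower in the null-labelled libraries, and overlapped for 6. Over all tested genes, 11.4% lay without overlap on the lower side and 11.2% on the higher side. By limma at an adjusted p threshold of 0.05, only Elane was called among the 9, lower, where 340 of 12037 genes (2.82%) were called lower and 63 (0.523%) higher. These values were known when the genes were chosen, and nothing is read from the counts. Every log2 difference here is on the log2(RPKM + 1) scale.

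Elane, neutrophil elastase, was at 630.93, 864.78 and 979.45 RPKM in the null-labelled libraries and at 1202.9, 1620.5 and 1711.2 RPKM in WT. Each of the former lay below each of the latter, with group means of 825.06 ± 177.6 and 1511.5 ± 271.1 RPKM (SD, n = 3) and a log2 difference of -0.88 ± 0.19 (SE). The difference ran from -1.04 to -0.70 over 14 alternative settings, and its call was lost in 8 of them, among them each setting that left out 1 library other than WT replicate 1. Without Asic3-null replicate 1, its lowest library, the log2 difference was -0.70.

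Prtn3, proteinase 3, lies just before Elane on chromosome 10, with 3137 bases between the end of one gene (79879667 to 79883174) and the start of the other (79886312 to 79888216). It was at 1592.5, 1782.6 and 1623.7 RPKM in the null-labelled libraries and at 1716.4, 2139.3 and 2760.0 RPKM in WT. The groups overlapped, since Asic3-null replicate 2 lay above WT replicate 1. The log2 difference was -0.38 ± 0.17 (SE), or -0.20 without WT replicate 3 and -0.55 without WT replicate 1. WT libraries also spread more for this gene, with a coefficient of variation of 23.8% against 6.12%.

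Ctsg, cathepsin G, the third serine protease of the granule, had the opposite sign. Its RPKM was 1131.0, 1734.7 and 1316.6 in the null-labelled libraries and 916.03, 942.56 and 1227.2 in WT. The groups overlapped only through WT replicate 3, which lay above Asic3-null replicate 1, and the log2 difference was 0.43 ± 0.18 (SE), positive under all 14 alternatives (0.26, without Asic3-null replicate 2, to 0.57).

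Because Ctsg and its fellow proteases differed in sign, their RPKM ratios within each library are given as well, a choice made after the values were seen. Ctsg over Elane was 1.79, 2.01 and 1.34 in the null-labelled libraries and 0.762, 0.582 and 0.717 in WT, so cathepsin G mRNA exceeded elastase mRNA per length in each of the former and in none of the latter. Ctsg over Prtn3 was 0.71, 0.973 and 0.811 against 0.534, 0.441 and 0.445, and Elane over Prtn3 was 0.396, 0.485 and 0.603 against 0.701, 0.757 and 0.62. In these 3 ratios the groups stood apart, for Elane over Prtn3 only by 0.603 against 0.62. Scaling of a library as a whole leaves a ratio within it unchanged. The 3 ratios are built from 3 genes, so each follows from the others. How often the groups stand apart in ratios of other gene pairs was not tested. In the other ratio computed, Mpo over Elane, they overlapped, at 0.384, 0.389 and 0.292 against 0.159, 0.487 and 0.32. These ratios rest on the contrast that was known when the genes were chosen and are descriptions.

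Mpo, myeloperoxidase, the heme enzyme that turns hydrogen peroxide and chloride into hypochlorous acid, spread more than any other of the 9 genes within WT. It was at 242.24, 336.56 and 285.68 RPKM in the null-labelled libraries and at 190.9, 789.51 and 547.99 RPKM in WT. WT replicate 1 was the lowest of all 6 libraries and WT replicate 2 the highest, giving a coefficient of variation of 59.1% in WT against 16.4%, and a log2 difference of -0.61 ± 0.43 (SE). These 2 libraries set the size of the difference: without WT replicate 1 the log2 difference was -1.20 and Mpo was called, and without WT replicate 2 it was -0.18.

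**Figure D2:**
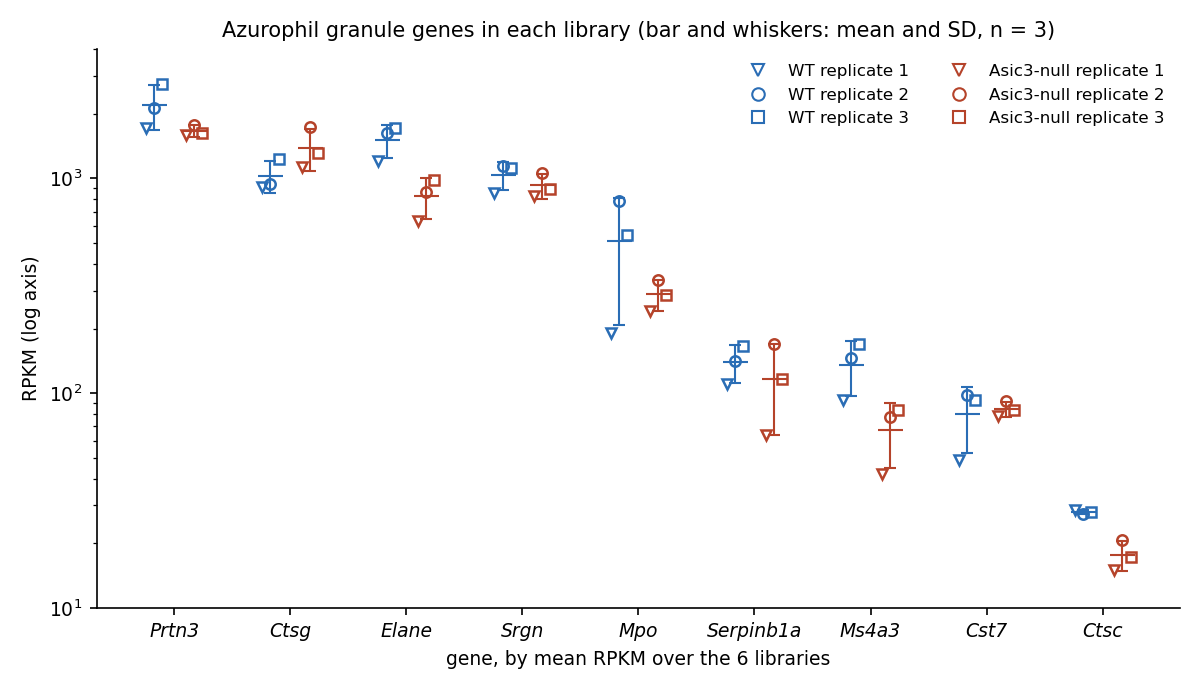
RPKM (log axis) of the 9 genes in each of the 6 libraries, ordered by mean RPKM, with WT in blue and Asic3-null in red, markers by replicate, and bar and whiskers for the mean and SD (n = 3). Elane, Ms4a3 and Ctsc show no overlap between the groups, and WT replicate 1 (blue triangle) of Mpo, at 190.9 RPKM, lies below all the other Mpo points.

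Of the genes that process, store or restrain the proteases, Ctsc, the activating protease cathepsin C (chromosome 7, 88278024 to 88315861), had the lowest level. It was at 15.03, 20.72 and 17.23 RPKM in the null-labelled libraries and at 28.67, 27.42 and 27.85 RPKM in WT, without overlap, for a log2 difference of -0.65 ± 0.16 (SE). The 3 WT libraries varied by 2.25%, less than the 8.22% that counting the inferred reads alone would give. Cst7, cystatin F, an inhibitor that can hold cathepsin C in check (chromosome 2, 150570415 to 150578944), was at 77.97, 91.55 and 83.79 against 48.72, 98.44 and 92.96 RPKM. Its groups overlapped, its log2 difference was 0.14 ± 0.25 (SE), and without WT replicate 1 the sign turned (-0.18).

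Srgn, the serglycin core protein (chromosome 10, 62493833 to 62527445), was at 829.71, 1063.5 and 889.83 RPKM in the null-labelled libraries and at 855.33, 1138.3 and 1124.0 RPKM in WT. The groups overlapped and the log2 difference was -0.16 ± 0.15 (SE), between -0.29 and -0.08 when 1 library was left out, the ends being WT replicate 1 and Asic3-null replicate 1. Serpinb1a, a cytosolic serpin that inhibits elastase, proteinase 3 and cathepsin G (chromosome 13, 32842092 to 32853206), was at 63.73, 169.21 and 116.56 against 110.84, 140.84 and 166.27 RPKM. Its spread was largest in the null-labelled libraries (coefficient of variation 45.3%), and its log2 difference of -0.35 ± 0.31 (SE) became 0.03 without Asic3-null replicate 1 and -0.67 without Asic3-null replicate 2.

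Ms4a3, a membrane protein of granulocyte-monocyte progenitors and promyelocytes (chromosome 19, 11629499 to 11640851), had the most negative log2 difference of the 9 genes, -1.02 ± 0.29 (SE). It was at 41.82, 77.16 and 83.32 RPKM in the null-labelled libraries and at 93.05, 146.15 and 168.63 RPKM in WT. The groups did not overlap, but the highest of the former lay close to the lowest of the latter, and the spread was 33.2% and 28.5% (coefficient of variation) in turn. Leaving out 1 library at a time moved the difference between -1.27 and -0.71.

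Summed over the 9 genes, RPKM was 4624.9, 6140.7 and 5396.2 in the null-labelled libraries and 5162.8, 7043.1 and 7826.0 in WT. The means were 5387.3 ± 757.9 and 6677.3 ± 1369 RPKM (SD, n = 3) and the groups overlapped. In each library 0.491% to 0.85% of the inferred reads fell on these genes. Prtn3 ranked 24 among all genes by RPKM in each null-labelled library, and 21, 12 and 7 in the 3 WT libraries.

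By mean RPKM over all 6 libraries, which is a level per gene length, the order was Prtn3 (1935.7), Ctsg (1211.3), Elane (1168.3), Srgn (983.44), Mpo (398.82), Serpinb1a (127.91), Ms4a3 (101.69), Cst7 (82.237) and Ctsc (22.819). Ctsg had rank 2 and Elane rank 4 in the null-labelled libraries, and in WT these ranks were exchanged. Cst7 had rank 7 and Ms4a3 rank 8 in the null-labelled libraries, and these ranks were exchanged in WT as well. In the null-labelled libraries the ranges of Prtn3 and Ctsg overlapped, as did those of Elane and Srgn, whereas in WT Prtn3 and Ctsg, and Elane and Srgn, stood apart. Mpo stood apart from Srgn above it and Serpinb1a below it in both groups. Serpinb1a overlapped with Ms4a3, and Ms4a3 with Cst7, in both groups, and Ctsc was below Cst7 in every library.

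Within a group, which is independent of the difference between groups, most of the 9 genes shared their lowest library. Asic3-null replicate 1 was the lowest of its group for 9 of 9 genes, where it was lowest for 32.1% of all tested genes. WT replicate 1 was the lowest of its group for 8 of 9 genes, where it was lowest for 31.6% of tested genes, and the exception was Ctsc. At the upper end, Asic3-null replicate 2 was highest for 7 of 9 genes (34.7% of tested genes) and WT replicate 3 for 5 of 9 (31.0%). These are counts over genes that share 3 libraries a group, and no test was made of them.

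On the log2(RPKM + 1) scale, the median deviation of the 9 genes from the group mean was -0.24, 0.23 and -0.01 in Asic3-null replicates 1, 2 and 3, and -0.31, 0.12 and 0.27 in WT replicates 1, 2 and 3. Over all tested genes the median deviation stayed within 0.03 of 0 in each library. The largest single deviations were those of Mpo, -1.19 and 0.86 in WT replicates 1 and 2, and those of Serpinb1a, -0.75 and 0.64 in Asic3-null replicates 1 and 2. The median coefficient of variation of the 9 genes was 16.4% in the null-labelled libraries and 19.9% in WT, against 13.5% and 13.2% over tested genes with a mean of at least 10 RPKM.

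**Figure D3:**
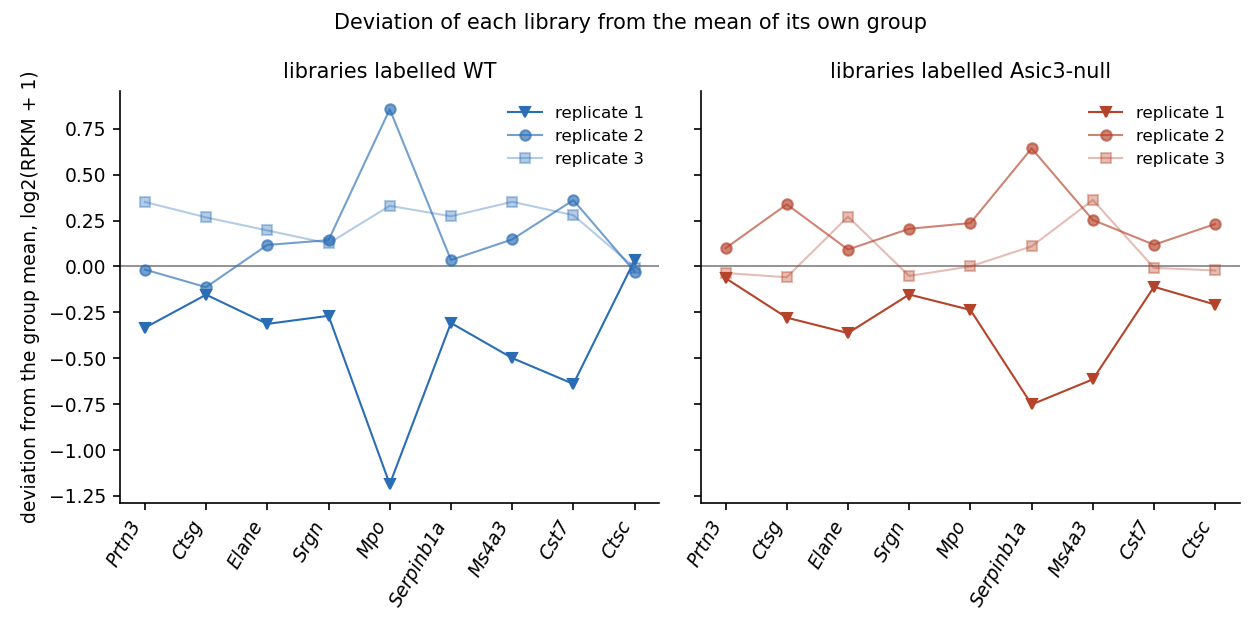
Deviation of each library from the mean of its own group on the log2(RPKM + 1) scale (y axis) for the 9 genes (x axis), with a line per replicate and 1 panel per group. Replicate 1 of the null-labelled libraries lies lowest for 9 of 9 genes and replicate 1 of WT for 8 of 9, with Mpo at -1.19.

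The tested genes whose centred log2(RPKM + 1) profile over the 6 libraries came nearest to the median profile of the 9 were Cmtm3, Cycs, Taf13, Babam2 and Tmem143, with root mean square distances of 0.0648, 0.0871, 0.109, 0.109 and 0.111. The 9 genes themselves lay at 0.134 (Prtn3) to 0.476 (Mpo) from that median. None was as near as these 5, but the 5 were picked as the nearest of all tested genes, so nothing is read from this. The profiles include the known difference between the groups. Cycs, at 0.7059 to 2.209 RPKM, rests on few reads, and adding 1 before the log2 shrinks its differences. Cmtm3, for instance, was at 3.742, 5.456 and 5.797 RPKM in the null-labelled libraries and at 5.003, 7.309 and 8.626 RPKM in WT, low in replicate 1 of both groups.

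Other contents of the same granules showed a mixture. Of 20 listed genes, 18 were tested, 5 fell in the null-labelled libraries and none rose, with a median log2 difference of -0.32. Lyz2, the lysozyme of myeloid cells, fell from 1116 ± 312.7 to 111.3 ± 18.12 RPKM (SD, n = 3), a log2 difference of -3.28 ± 0.22 (SE, limma adjusted p = 0.000141). Lyz1, a near copy of Lyz2 that may share reads with it, fell by 2.80 on the log2 scale (limma adjusted p = 0.0037). Lyz2 and Lyz1 passed the test under all 14 alternatives, and with no filter on low values, with no intensity trend or without any 1 WT library they were the only 2 of the list that did. Prss57, another serine protease of these granules, was at 35.92, 65.32 and 39.53 against 47.68, 62.55 and 56.15 RPKM, overlapping, and lowest in replicate 1 of both groups. The difference of Lyz2, whose product secondary granules hold as well, was larger in size than that of any of the 9 genes, though this comparison was not tested.

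Of the genes that sort and mature granule proteins, 20 were tested, 3 fell and none rose, with a median of -0.05. These 3 were lysosomal proteases, Ctsl (-1.06, limma adjusted p = 0.00748), Ctss (-1.36, limma adjusted p = 0.00653) and Lgmn (-1.51, limma adjusted p = 0.0145), and the last call was lost in 4 of its alternatives, without Asic3-null replicate 1 or 3 or WT replicate 1 or 2 (adjusted p up to 0.0659). The chaperone Calr, which binds the precursor of myeloperoxidase, was at 939.9 ± 145.7 and 690.2 ± 163.3 RPKM and did not pass the test (limma adjusted p = 0.277). Of 15 tested genes for the glycosaminoglycan chains of serglycin, none passed the test. The lowest p was that of Ext1, a polymerase of heparan sulfate, at a log2 difference of -0.93 ± 0.23 (SE, limma adjusted p = 0.0661), and Chst12 (-0.30, limma adjusted p = 0.38) and Chst11 (0.38, limma adjusted p = 0.408) came next. Ext1 passed the test with no intensity trend (adjusted p = 0.0456) and by limma-voom (adjusted p = 0.0311).

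Among 9 tested genes of heme synthesis and breakdown, relevant to the heme of Mpo, Fech rose and Hmox1 fell, and the median was 0.01. Fech, ferrochelatase, which inserts the iron, was at 71.08 ± 5.885 against 36.34 ± 1.657 RPKM (log2 difference 0.95 ± 0.13, SE, limma adjusted p = 0.00513). Hmox1, heme oxygenase 1, which breaks heme down, was at 6.22 ± 1.529 against 34.71 ± 2.083 RPKM (-2.33 ± 0.19, SE, limma adjusted p = 0.000396).

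Among 7 tested protease inhibitors, Slpi, secreted leukocyte protease inhibitor, which blocks elastase and cathepsin G, rose. It was at 2514, 3965 and 3110 RPKM in the null-labelled libraries and at 1840, 1740 and 1638 RPKM in WT, a log2 difference of 0.85 ± 0.16 (SE, limma adjusted p = 0.0259). Its level per length exceeded that of each of the 9 genes in every null-labelled library. The call was lost in 8 of 14 alternatives, among them each that left out 1 library other than Asic3-null replicate 1, with adjusted p up to 0.119. Serpinb6a (0.60, limma adjusted p = 0.138) and Cst3 (-0.30, limma adjusted p = 0.252) did not pass the test.

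Of 11 tested transcription factors of granule genes, 1 fell and none rose, with a median of -0.15. That was Cebpb, at 49.18 ± 2.803 against 84.18 ± 18.01 RPKM (-0.74 ± 0.16, SE, limma adjusted p = 0.0461), a call lost in 9 of 14 alternatives, among them each that left out 1 library other than WT replicate 2 (adjusted p up to 0.165). Cebpd (-0.51, limma adjusted p = 0.113) and Spi1, which encodes PU.1 (-0.38, limma adjusted p = 0.136), did not pass the test. Without overlap, 4 of the 11 lay lower in the null-labelled libraries (Cebpb, Cebpd, Spi1 and Irf8) and 2 higher (Cebpe and Myb). Among all tested genes, 11.4% lay lower and 11.2% higher without overlap. Cebpe, the factor known for secondary granule genes, was at 86.61 ± 8.876 against 65.61 ± 8.657 RPKM (limma adjusted p = 0.222), and Myb was at 230.6 ± 21.77 against 181.5 ± 30.18 RPKM (limma adjusted p = 0.297), so neither passed the test.

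Genes of the later granules were lower in the null-labelled libraries. Of 15 tested genes of secondary and tertiary granules, 13 fell and 15 of 15 lay lower without overlap, as did 11.4% of all tested genes. The median log2 difference of the 15 was -2.60 against -0.38 for the 9 azurophil genes. Of the 13, Itgb2l (0, 0.3207 and 0.1627 RPKM against 6.903, 8.631 and 6.776) passed the filter on low values only through WT, and with a filter at a mean of 5 RPKM 10 genes of the list were called. Camp, the cathelicidin precursor, was at 10.62 ± 4.831 against 455.5 ± 85.17 RPKM (-5.39 ± 0.32, SE, limma adjusted p = 8.1e-05). Ngp fell by 4.08 (limma adjusted p = 3.5e-05) and Olfm4 by 2.60 (limma adjusted p = 0.000396). This list and the azurophil genes were both chosen with these results known, and the difference between them was not tested.

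Of 9 tested progenitor genes, 3 rose, none fell and 6 did not pass the test, with a median of 0.33. Adgrg1 (1.19, limma adjusted p = 0.0301), Meis1 (0.91, limma adjusted p = 0.0367) and Gata2 (0.88, limma adjusted p = 0.044) were the 3 that rose, and these calls were lost in 7, 8 and 7 of 14 alternatives in turn (adjusted p up to 0.112, 0.127 and 0.158). Leaving out 1 library kept the call of Adgrg1 only where it was WT replicate 2, of Meis1 only where it was Asic3-null replicate 1, and of Gata2 only where it was Asic3-null replicate 2 or WT replicate 3.

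**Figure D4:**
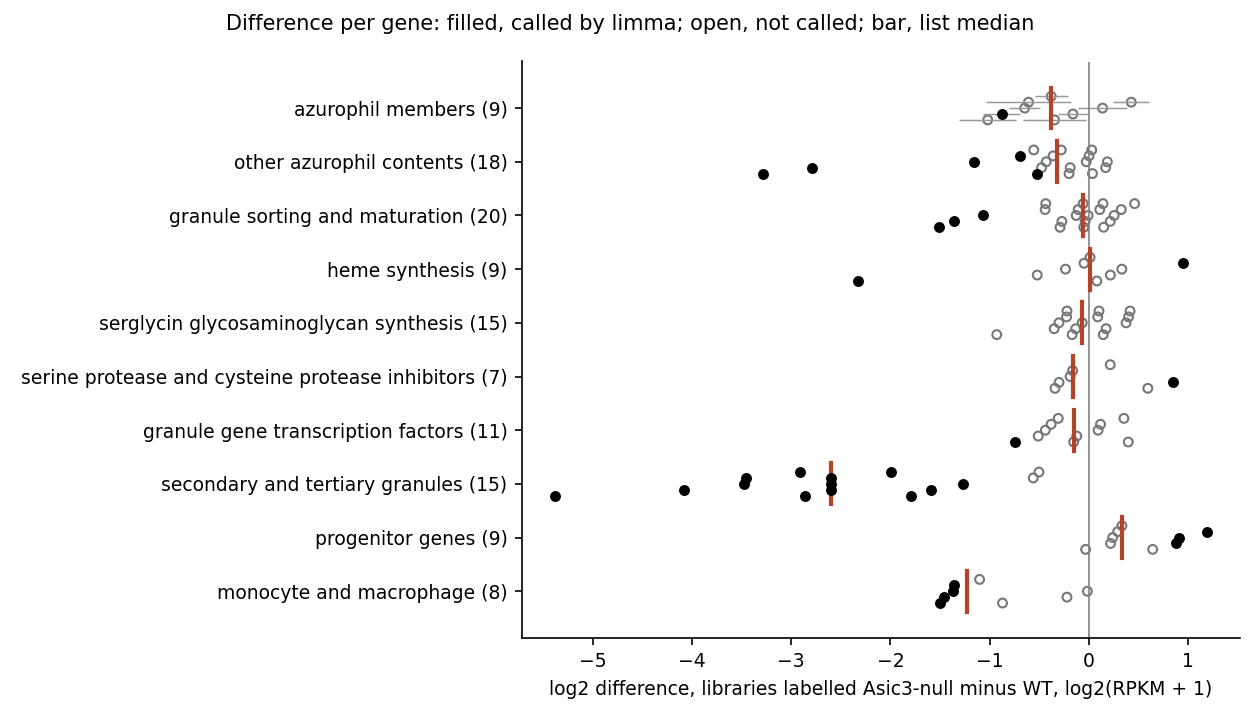
Log2 difference (libraries labelled Asic3-null minus WT, log2(RPKM + 1) scale, x axis) of each tested gene of 10 gene lists (y axis, number of tested genes in parentheses), filled where limma called the gene, with a red bar at the list median and, for the 9 azurophil genes, lines for the SE. The 9 azurophil genes lie from -1.02 to 0.43 around a median of -0.38, and the secondary and tertiary granule genes around -2.60.

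Markers of other cells moved in part with the same contrast. Of 8 tested monocyte and macrophage markers, 4 fell and none rose, with summed RPKM of 222.9 to 257.8 in the null-labelled libraries and 327.1 to 372.2 in WT, not overlapping. Csf1r (-1.50, limma adjusted p = 0.00261), Adgre1 (-1.37, limma adjusted p = 0.00732) and Ccr2 (-1.46, limma adjusted p = 0.00771) led them, whereas the defining markers Fcgr1, Mrc1 and C1qa stayed under 0.4 RPKM in every library. Their part in the differences of the 9 genes was not tested.

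Of 16 eosinophil, basophil and mast cell markers, 5 were tested and none passed the test, 8 were at 0 in every library, and the summed RPKM overlapped (133.6 to 138.2 against 77.63 to 186.7). The 3 with the lowest p were Prg3 (limma adjusted p = 0.372), Cpa3 (limma adjusted p = 0.39) and Mcpt8 (limma adjusted p = 0.634). Cpa3 was at 65.1, 102.6 and 80.6 against 27.49, 100.7 and 36.34 RPKM, lowest in replicate 1 of both groups. It passed the test without WT replicate 2 (log2 difference 1.34, limma adjusted p = 0.0264), its difference without WT replicate 1 was 0.42, and with all libraries it was 0.79. Of 12 NK and T cell markers 8 were at 0, and the only one tested was Nkg7, a granule membrane protein (limma adjusted p = 0.814). Of 8 B cell markers, Cd79b (42.55 ± 4.974 against 44.66 ± 3.85 RPKM, limma adjusted p = 0.847) and Vpreb1 (limma adjusted p = 0.959) were tested, with Ms4a1 at 0. The erythroid markers summed to 0.9717 to 2.415 RPKM in the null-labelled libraries and 3.067 to 10.81 RPKM in WT, not overlapping. The only one tested was Hba-a1 (limma adjusted p = 0.298). It was listed at 0 in every null-labelled library and passed the filter on low values only through WT. Without WT replicate 3, Hba-a1 passed the test (log2 difference -1.949, limma adjusted p = 0.0471).

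The 9 genes lie on 7 chromosomes, and the 3 RefSeq genes on each side of them gave 48 neighbours outside the set, of which 30 were in the table and 17 were tested. None of the 17 was called by limma. Next to Mpo on chromosome 11 (87793784 to 87804412), the related peroxidases Lpo and Epx were at group means of 0.1947 and 0.09621 RPKM (Lpo) and of 0.74 and 1.386 RPKM (Epx), against 288.16 and 509.47 RPKM for Mpo. Next to Ctsg on chromosome 14 (56099885 to 56102574), the granzymes Gzme and Gzmd were at 0 in every library and Mcpt8, a basophil protease, was at 35.99 and 28.33 RPKM. Next to Elane, Cfd, a serine protease of the complement system, was at 0.4679 and 0.1525 RPKM. In these 3 stretches the related enzymes named here, all outside the 9 genes, lay far below the granule gene beside them in both groups. Prtn3, which is among the 9, also lies next to Elane and was above it in both groups. Its means were 1666.2 (null-labelled) and 2205.2 (WT) RPKM, against 825.06 and 1511.5 RPKM for Elane.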

How the data were processed

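Per the labels, total RNA of the LICs was made into TruSeq RNA libraries, which do not mark strand. The authors processed the reads with CASAVA 1.8.2 and TopHat2 2.0.12 on GRCm38, and the deposited values are RPKM, 1 per gene and library. The counting tool and annotation are not given in the sources used here. Row identifiers were matched to RefSeq symbols (25275 of 27179 rows). The values of all 16825 genes above 0 were whole multiples of 1 read (tolerance 0.0001 reads), which gave library sizes. The smallest such whole numbers were taken, and intervals from them cover counting error only.

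Values were tested as log2(RPKM + 1) for genes whose mean RPKM reached 1, with limma 3.58.1 (R 4.3.3) and an intensity trend, Asic3-null against WT, adjusted over all 12037 genes by the Benjamini-Hochberg method. Tests were also run on simulated data, and the outcome is not reported here. Alternatives were another pseudocount, filters, 2 scalings, no trend, a replicate block, limma-voom on the inferred reads and leaving out each library. Genes named were the 9 genes, up to 3 genes per list with the lowest p, called neighbours, the 5 nearest profiles, and the label and sort checks, of which some are not reported here. Prss57, Calr, Cebpe, Irf8, Myb, Itgb2l, the marker genes given at low level and the related neighbours were added to the text with values in view. The 9 genes and all lists were chosen with earlier results of these data known. Promoter windows came from RefSeq (GRCm38.p6) and were searched on both strands.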

Additional observations from a re-analysis of the deposited data

How the results depend on the processing

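In all, 14 alternatives were tried, 6 of which left out 1 library. Of all tested genes, 403 were called, 246 with the replicate block and 203 to 293 without 1 library. The 1 call among the 9 genes (Elane) became 0 with no filter on low values, with quantile normalization and with no intensity trend, 2 with limma-voom (Elane and Ctsc) and 2 with the replicate block (Elane and Ms4a3), and ran from 0 to 2 without 1 library. The 5 calls among other azurophil contents became 2 with no filter, with no trend and with the block, and 2 to 3 without 1 library. The 1 call among transcription factors became 0 with log2(RPKM + 0.1), no filter, no trend and the block, and was 0 or 1 without 1 library. The 3 progenitor calls became 0 with no filter and no trend, 1 with the block and 0 or 1 without 1 library. No neighbour was called, except 2 with no filter (Ms4a6d and Oosp2, both below a mean of 1 RPKM over all libraries). Calls among secondary and tertiary granule genes, granule machinery and markers of other cell types stayed within 1.5 times. Without any 1 library, 7 to 9 of the 9 genes kept their rank by level. Without 1 library, the log2 difference ran through 0 for Cst7 (-0.181 without WT replicate 1 to 0.319), Serpinb1a (-0.666 to 0.031 without Asic3-null replicate 1), Nkg7 (-0.392 to 0.166 without Asic3-null replicate 1), Cd79b (-0.148 to 0.018 without Asic3-null replicate 3) and Vpreb1 (-0.497 to 0.784, negative without Asic3-null replicate 2 or 3 or WT replicate 3, at -0.265, -0.174 and -0.497). The correlations of same-numbered deviations were 0.059, -0.059 and -0.123, and those of differently numbered ones ran from -0.073 to 0.141. Deviations from a mean of 3 libraries depend on each other, so these values cannot tell whether same-numbered libraries share a batch. Whether the numbers pair the libraries is not known, and the block result is given only here. With 2 to 3 libraries a group, leaving out 1 also lowers the power of every test, and the depth of 1947168 to 2381861 reads limits genes near 1 RPKM to a few reads per kb. The median-ratio scaling factors were 0.991 to 1.023.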
